A study of Rattus norvegicus with 27 samples.

Results

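The SR splicing factors followed here are Srsf1, Srsf2, Srsf3, Srsf4, Srsf5, Srsf6, Srsf7, Srsf10, Srsf11 and Luc7l3, 10 of the 18166 genes that could be named on the array. A probe set belonged to the group when the platform annotation gave it a single gene symbol and that symbol was one of these. Each gene had 1 such probe set, and all 10 passed the filter on low values that left 12716 genes for testing. The study set transcripts in extracts of hippocampal fields beside transcripts bound to polysomes after global brain ischemia. The rats were male Long Evans rats, whose age is not given in the sources used here. Sham-operated rats (non-ischemic controls, NIC) were compared with rats given 10 min of complete normothermic forebrain ischemia, by occlusion of both carotid arteries under hypotension, and 8 h of reperfusion (8R). The hippocampal fields CA1 and CA3 were dissected, and tissue of 5 rats went into each pool. The supernatant left after mitochondria were spun out was divided, 20% giving total RNA and the rest giving polysome RNA from the pellet under a 20% sucrose pad. Total RNA here is thus RNA of that supernatant and not of whole tissue. The 8 groups of condition, region and RNA fraction held 3 arrays each, except 8R CA1 total, 8R CA3 total and 8R CA3 polysome RNA, which held 4.

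SR proteins carry RNA recognition motifs and a tail rich in arginine and serine. They bind exonic enhancers, recruit the spliceosome to nearby splice sites, and some travel to the cytoplasm with the mRNA and act in its export and translation. Phosphorylation of the tail by SRPK kinases in the cytoplasm and CLK kinases in the nucleus sets where the proteins are and how active they are. Many SR genes control their own output through poison exons, whose inclusion sends the transcript to nonsense-mediated decay. In the reperfused brain translation is known to be suppressed, and CA1 pyramidal neurons die days later while most CA3 neurons survive.

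Values are deposited probe set intensities on a linear scale. Differences are on the scale of log2(intensity + 16), on which the change of dim transcripts is understated. Folds are taken from these differences, so they are folds of intensity + 16 and not of the intensities printed. The word "called" means an adjusted p under 0.05 in a limma fit of all 27 arrays, adjusted over the 12716 genes. The 27 array medians ranged from 25.6 to 38.1, and the lowest correlation between arrays of a group was 0.946. Every array received an equal mass of RNA, so a difference is one of share in the labelled RNA and not of amount per cell. Hspb1, Hmox1 and Atf3, stress genes used to check the condition labels, were called higher in 8R in all 4 comparisons with NIC. Summed intensities of 5 markers of CA1 neurons ranged from 851 to 1995 in the CA1 arrays and from 401 to 630.1 in the CA3 arrays, with no overlap. Summed markers of CA3 neurons overlapped between the regions, at 701 to 1013 in CA1 and 862 to 1205 in CA3. The 4 arrays of 8R pool 4 were low for the SR factors, with mean deviations from their group means of -0.27 (CA3 polysome), -0.16 (CA3 total), -0.16 (CA1 polysome) and -0.09 (CA1 total) on the log2 scale. Among controls, replicate 2 of total RNA was low in CA1 (-0.16) and in CA3 (-0.13).

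Sequence upstream of the start sites is shown for 4 members that differed in their response. Srsf3 and Srsf5 were called higher in total RNA of both regions, and Srsf4 was called in neither. Luc7l3 was called higher in CA1 total RNA and lower in CA3 polysome RNA. The sequences are the 250 bases before the annotated start in RefSeq, build GRCr8, 5′ to 3′ on the strand of the gene. All 10 members matched an entry, Srsf10 with 2 windows, and the Srsf5 window precedes a transcript start inside the span of the gene. The windows printed are chr20:7093335-7093584, plus strand (Srsf3), chr6:106336506-106336755, plus strand (Srsf5), chr5:149345288-149345537, plus strand (Srsf4) and chr10:79773430-79773679, minus strand (Luc7l3). Capitals mark matches on either strand to TGACG, the core of the cyclic AMP response element, or to GAANNTTC, the pair of inverted units of a heat shock element.
Srsf3: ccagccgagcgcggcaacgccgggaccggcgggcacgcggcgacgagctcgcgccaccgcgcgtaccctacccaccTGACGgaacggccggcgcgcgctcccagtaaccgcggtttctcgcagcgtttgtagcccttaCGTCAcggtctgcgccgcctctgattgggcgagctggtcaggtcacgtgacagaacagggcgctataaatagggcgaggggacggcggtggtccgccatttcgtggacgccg
Srsf5: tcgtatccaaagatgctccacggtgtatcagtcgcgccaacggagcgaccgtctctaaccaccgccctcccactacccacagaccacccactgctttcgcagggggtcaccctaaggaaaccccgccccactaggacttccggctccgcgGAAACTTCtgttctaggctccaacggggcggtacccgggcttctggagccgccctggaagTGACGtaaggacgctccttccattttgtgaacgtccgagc
Srsf4: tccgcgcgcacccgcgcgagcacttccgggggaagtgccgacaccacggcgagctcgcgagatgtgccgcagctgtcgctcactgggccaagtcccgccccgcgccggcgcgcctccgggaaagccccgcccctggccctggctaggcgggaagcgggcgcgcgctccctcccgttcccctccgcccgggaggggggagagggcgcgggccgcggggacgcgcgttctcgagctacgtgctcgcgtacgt
Luc7l3: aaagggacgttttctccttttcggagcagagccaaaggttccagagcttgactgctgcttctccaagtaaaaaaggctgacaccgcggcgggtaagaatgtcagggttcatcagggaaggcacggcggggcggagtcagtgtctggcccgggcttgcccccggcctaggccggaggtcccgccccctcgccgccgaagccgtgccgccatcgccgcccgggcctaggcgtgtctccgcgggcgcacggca

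TGACG was present in the windows of Srsf1, Srsf3, Srsf5, Srsf6, Srsf10 and Srsf11 and absent from the windows of Srsf2, Srsf4, Srsf7 and Luc7l3. That is 6 of 10 members, against 18.2% of the 33469 windows of the same length in the table. TGACG holds a CG pair, and the median count of CG was 25 in member windows and 5 over all windows. At least 17 CG were in 10 of the 11 member windows and in 21.9% of all windows. That cut equals the count of the Srsf11 window, the lowest of the members apart from 1 Srsf10 window. The count of member windows is thus no test. A share among windows of like CG content was not computed. Srsf2 and Srsf7, which lack TGACG, were also called higher in total RNA of both regions, and Srsf6, which has it, was not called in CA3. The heat shock element pair was found in Srsf5, 1 of 10 members, against 7.23% of all windows. The group had windows rich in G and C: the median GC content was 66.4% over the 11 member windows and 51.2% over all windows, and 8 of 10 members held a GC box (GGGCGG, 30.5% of all windows). Of the other motifs searched, each on both strands, the CCAAT box (CCAAT) was in Srsf1, Srsf2, Srsf3 and Srsf10 (34.0% of all windows). The hypoxia element core ACGTG was in Srsf3, Srsf4 and Srsf6 (16.6%), and the E-box CACGTG, which contains it, in Srsf3 (5.59%). The ETS site CCGGAAGT was in Srsf4 and Srsf5 (3.1%) and the TATA box TATAAA in Srsf2 and Srsf3 (12.9%). The full cyclic AMP response element TGACGTCA, which contains TGACG (1.59%), the ATF4 element TGATGNAA (3.4%), the YY1 site AAGATGGC (1.63%) and the AP-1 site TGANTCA (6.34%) were found in 0 member windows. A match describes letters in the window and is not a binding site shown by these data.

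In total RNA of CA1, 9 of the 10 SR factor transcripts were higher 8 h after ischemia than in controls, and the exception was Srsf4. Over all genes tested 20.1% were called higher and 6.15% lower. The median change of the 10 members was 0.63 on the log2 scale, beside 0.04 over all genes. In bulk tissue a change in the number of cells of a type and a change in RNA per cell cannot be told apart. Srsf3, which splices and also hands mRNA to the export receptor, had the largest change of the members. Its intensities in CA1 total RNA were 68.0, 55.5 and 61.7 in NIC and 198, 178, 150.2 and 142 in 8R. The 8R arrays were all above the NIC arrays, with a log2 difference of 1.23 ± 0.13 (SE), 2.35-fold (limma adjusted p = 4.99e-08).

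Srsf7, a zinc-knuckle SR protein with an export role like that of Srsf3, was at 34.1, 27.4 and 40.3 in NIC and 109, 94.9, 73.9 and 66.6 in 8R. The groups did not overlap, and the log2 difference was 1.02 ± 0.17 (2.03-fold, limma adjusted p = 4.4e-05). Srsf5, a regulator of alternative exons, was at 249.8, 232 and 208 in NIC and 513, 436, 403 and 455 in 8R, a log2 difference of 0.93 ± 0.10 (limma adjusted p = 1.74e-07). Srsf1, the founding member of the family, was at 163, 152 and 157 in NIC and 342, 288, 288 and 273 in 8R, a log2 difference of 0.85 ± 0.12 (limma adjusted p = 3.07e-06). For both, every 8R array lay above every NIC array, and NIC replicates lay close together.

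The remaining called members rose by 0.50 to 0.65 in CA1 total RNA. They were Srsf10 (0.65), an SR protein that becomes a splicing repressor when dephosphorylated, as after heat shock, Srsf6 (0.61), an exon-inclusion factor, Srsf11 (0.60), an SR-related partner of the early spliceosome, Srsf2 (0.54), a resident of nuclear speckles, and Luc7l3 (0.50), a partner of the U1 particle that recognises 5′ splice sites. For Srsf6 the 8R arrays were 179, 104, 122 and 111, with replicate 1 well above the others, and the NIC arrays were 90.4, 55.3 and 89.7. Srsf4, the longest-tailed member of the group, was at 74.2, 58.1 and 91.2 in NIC and 93.4, 93.4, 89.2 and 84.1 in 8R. Its groups overlapped, and the difference of 0.24 ± 0.13 (95% interval -0.02 to 0.51) was not called (limma adjusted p = 0.17). In all, the 8R arrays of 9 members lay above every NIC array, an arrangement found in 24.5% of all genes tested. Without NIC CA1 total replicate 2 the Luc7l3 difference was 0.44 and was not called (limma adjusted p = 0.0541).

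**Figure D1:**
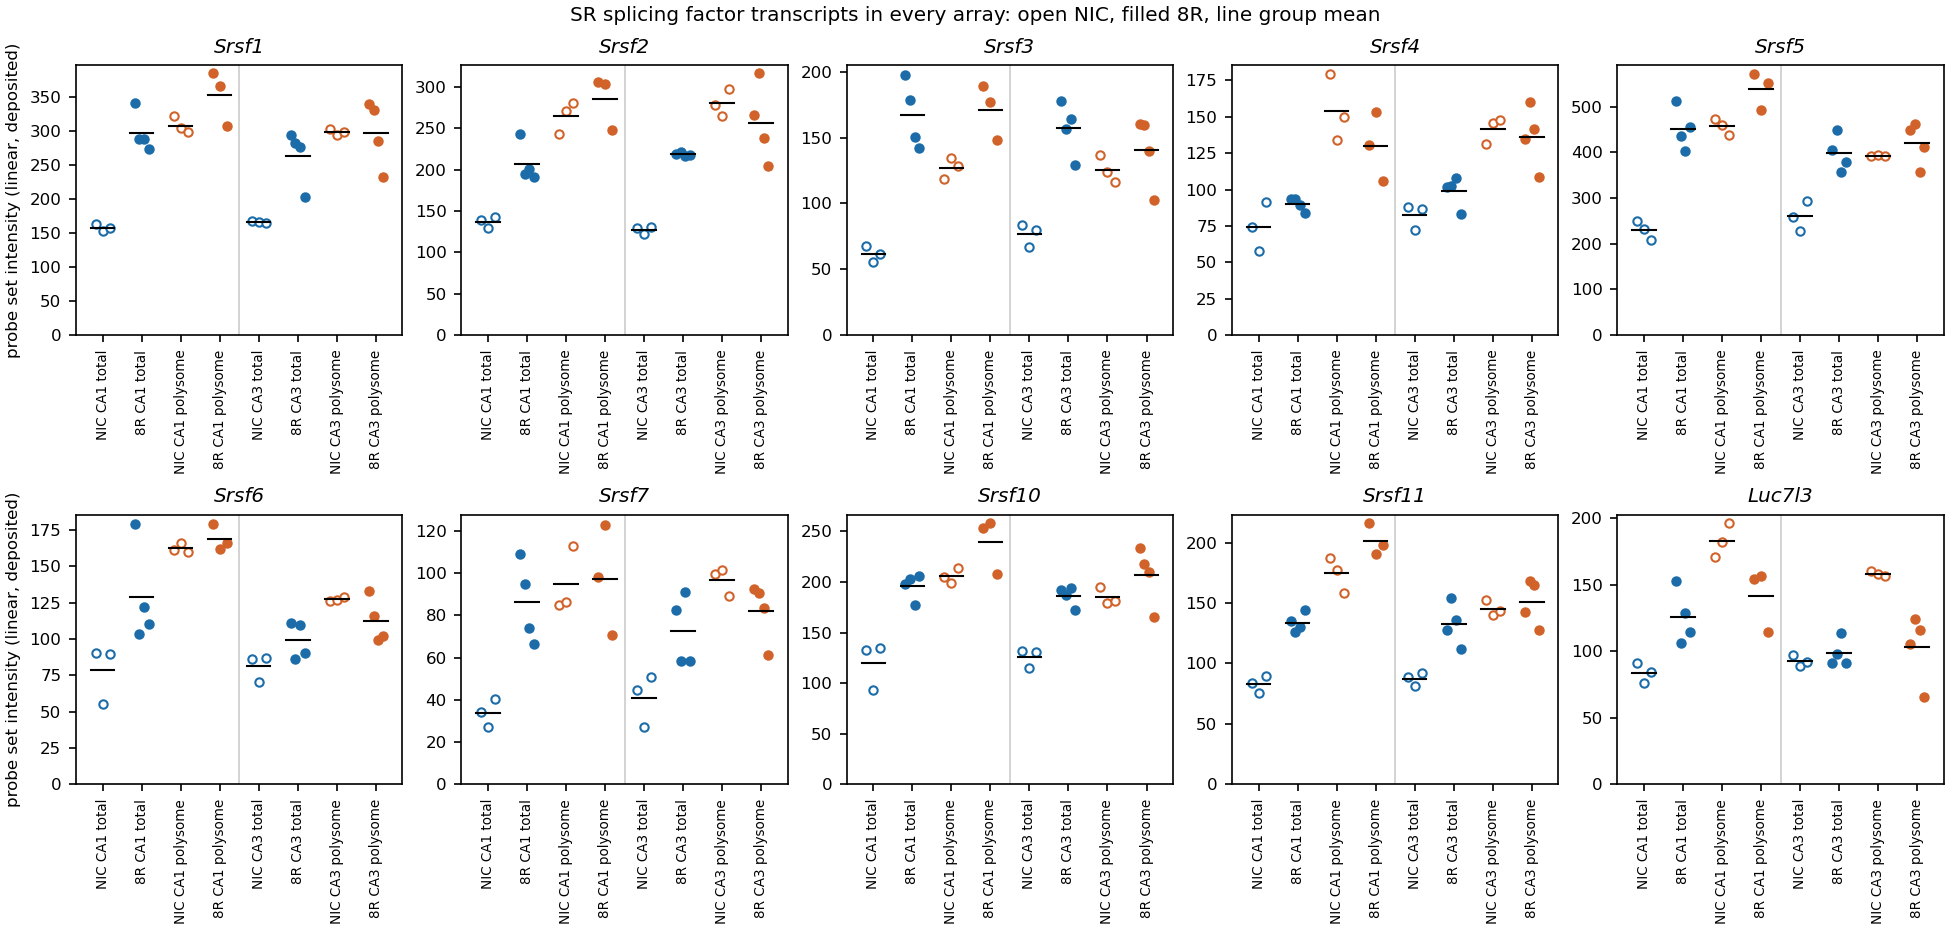
Deposited linear intensity (y axis, from 0, with its own range in each panel) of the 10 SR splicing factors in every array of the 8 groups (x axis), with total RNA in blue, polysome RNA in orange, NIC open and 8R filled, and a line at each group mean. Srsf3 in CA1 total RNA goes from 55.5 to 68.0 in NIC to 142 to 198 in 8R, while the CA1 polysome groups lie closer together, at 118 to 134 in NIC and 148 to 189 in 8R.

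In total RNA of CA3, the more resistant field, 7 of 10 members were called higher after ischemia, where 14.2% of all genes were called higher and 1.34% lower. The members' median change was 0.55, beside 0.09 over all genes. Srsf3 again had the largest change of the group, from 83.3, 67.3 and 79.7 in NIC to 178, 157, 164 and 129 in 8R, a log2 difference of 0.89 ± 0.13 (1.86-fold, limma adjusted p = 2.63e-05). Srsf2 followed, with 129.7, 122 and 130.3 in NIC and a narrow 219, 221, 217 and 218 in 8R, a difference of 0.71 ± 0.11 (limma adjusted p = 5.41e-05). Neither member's groups overlapped.

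Srsf7 (0.64), Srsf1 (0.60), Srsf5 (0.59), Srsf11 (0.52) and Srsf10 (0.51) were the others called higher in CA3 total RNA. All 7 called members had 8R arrays above every NIC array, as had 20.2% of all genes tested. The Srsf7 call rested on NIC replicate 2: its NIC arrays were 44.7, 27.3 and 50.7, and without that array the difference was 0.46 and was not called (limma adjusted p = 0.126). Srsf6 (0.24 ± 0.14), Srsf4 (0.23 ± 0.13) and Luc7l3 (0.07 ± 0.14) were not called, with limma adjusted p of 0.256, 0.256 and 0.779. Luc7l3 arrays were interleaved, at 97.0, 89.1 and 91.6 in NIC and 91.1, 97.8, 114 and 91.0 in 8R. With array weights Srsf4 was called as well (0.25, limma adjusted p = 0.0419), in a fit that called 37.3% of all genes.

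Markers of other cells moved with the condition in the same total RNA. In CA1, 4 of 6 astrocyte markers tested and 3 of 6 microglia markers were called higher in 8R, and 3 of 7 neuron markers and 3 of 5 CA1 neuron markers were called lower. Over all genes tested 20.1% were called higher and 6.15% lower there. Summed astrocyte intensities were 3419 to 3607 in NIC CA1 total RNA and 4442 to 5083 in 8R, and summed microglia intensities were 319 to 339 and 387 to 469. Summed neuron intensities overlapped, at 8504 to 8944 in NIC and 7459 to 8834 in 8R. In CA3 total RNA 2 of 6 astrocyte and 2 of 6 microglia markers were called higher, with sums of 3098 to 3259 and 283 to 319 in NIC and 3389 to 4441 and 372 to 412 in 8R. There 1 of 7 neuron markers was called higher and 1 lower, and over all genes 14.2% were called higher and 1.34% lower. Oligodendrocyte markers were called higher in 1 and lower in 1 of 6 cases in CA1 total RNA, with overlapping sums, and higher in 2 of 6 in CA3 total RNA, where the sums went from 1099.5 to 1334 in NIC to 1519 to 1703 in 8R. Of 3 dentate granule cell markers tested 1 was called higher in CA1 total RNA, and the summed intensities of the 4 measured did not overlap, at 366 to 497 in NIC and 528 to 785 in 8R. In CA3 total RNA none of those 3 was called. None of the 2 endothelial markers and the 1 blood or choroid plexus marker tested was called in either. On polysomes microglia markers were called higher in 3 of 6 cases in CA1 and 2 of 6 in CA3, and astrocyte markers in 1 of 6 in each. In CA1 polysome RNA 5 of 7 neuron markers, 2 of 7 CA3 neuron markers and 1 of 5 CA1 neuron markers were called lower. In CA3 polysome RNA 0 markers of these 3 lists were called. Over all genes 4.87% were called higher and 3.46% lower in CA1 polysome RNA, and 2.38% and 0.275% in CA3. Every marker measured had a group mean above 1 in intensity, and the part of these shifts in the SR factor changes was not tested.

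On polysomes the SR factor transcripts changed little after ischemia, and 1 of the 20 member comparisons was called. In CA1 polysome RNA 0 of 10 members were called by limma, 2 had an unadjusted p under 0.05, and 4.87% of all genes were called higher and 3.46% lower. The members' median change was 0.14, beside 0.01 over all genes. Srsf3 arrays were 118, 134 and 129 in NIC and 189, 177 and 148 in 8R. They did not overlap, and the difference was 0.38 ± 0.14 (limma adjusted p = 0.0835). This value was called with array weights (adjusted p = 0.00691), with pool as a replicate block (0.0342) and without the 8R arrays of pool 4 (0.00629), the last of which also called Srsf1 (0.27, adjusted p = 0.0494). In these fits 17.3%, 10.3% and 8.86% of all genes were called. Srsf7 showed no separation, with 84.8, 86.2 and 113 in NIC and 98.1, 123 and 70.5 in 8R, a difference of 0.01 ± 0.18 whose 95% interval ran from -0.36 to 0.39.

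Luc7l3 had the lowest change on polysomes of the 10 members in both regions. In CA3 polysome RNA its intensities were 159.9, 158 and 156 in NIC and 106, 124, 116 and 65.7 in 8R. All 8R arrays were below the NIC arrays, which lay within a few units of each other, and the difference was -0.58 ± 0.14 (0.669-fold, limma adjusted p = 0.0212). It was the 1 member called lower in CA3 polysome RNA, where 0.275% of all genes were called lower and 2.38% higher, and 0 members were called higher. The call was lost without any 1 of the 3 NIC CA3 polysome arrays (adjusted p of 0.0686 to 0.0841) and without 8R replicate 4, the lowest array (-0.41, adjusted p = 0.0795). In CA1 polysome RNA Luc7l3 was at 171, 182 and 196 in NIC and 154, 156 and 115 in 8R. Those groups also did not overlap, but the difference of -0.34 ± 0.15 was not called (limma adjusted p = 0.149). The other 9 members in CA3 polysome RNA had differences of -0.21 (Srsf7) to 0.14 (Srsf10), all with overlapping groups. The members' median there was -0.04, beside 0.04 over all genes, and with arrays scaled to a common median these were -0.19 and -0.10.

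**Figure D2:**
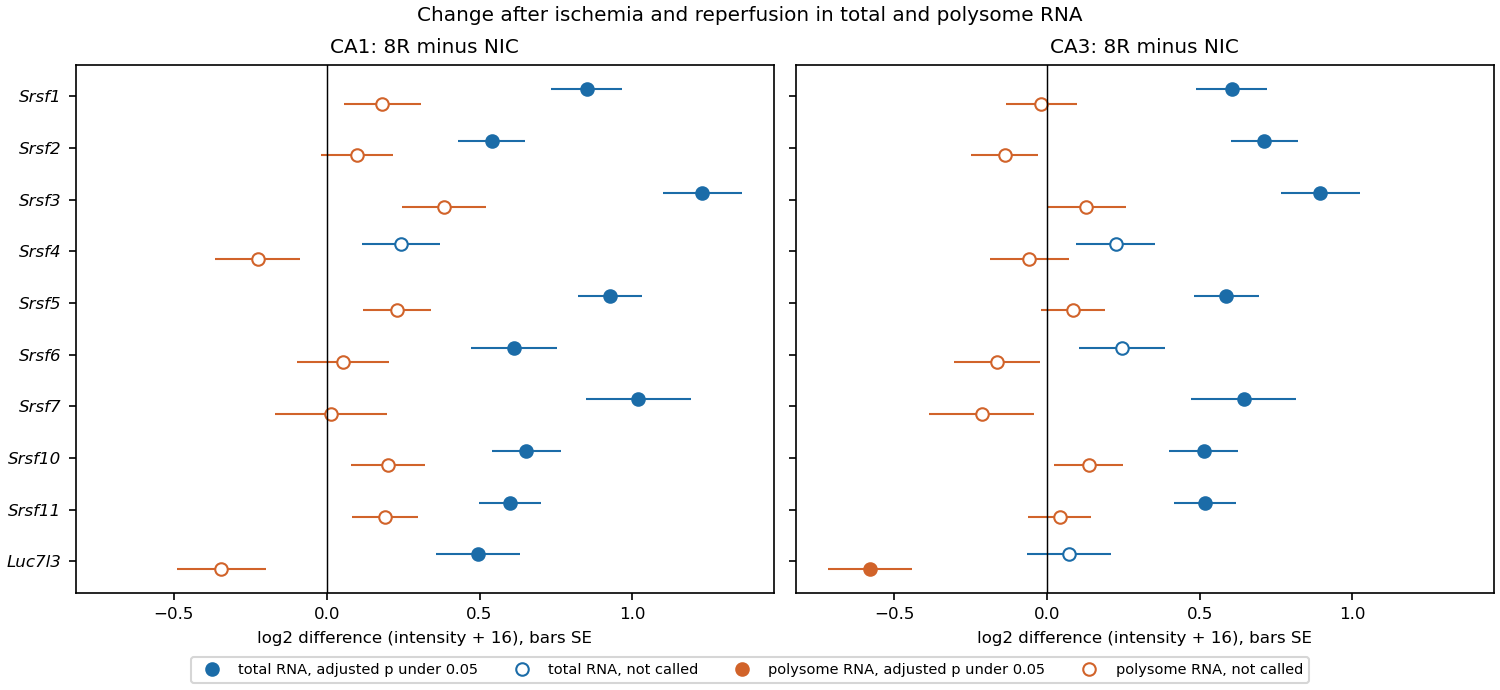
Log2 difference of 8R and NIC (x axis, bars SE) for each SR splicing factor in total RNA (blue) and polysome RNA (orange), CA1 at left and CA3 at right, filled where the limma adjusted p was under 0.05. Total RNA points lie to the right of polysome points for all 10 members in both regions, and Luc7l3 in CA3 polysome RNA is the only filled polysome point, at -0.58.

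The signed change on polysomes lay below the signed change in total RNA for every member in both regions, and the difference of the changes was tested directly. For Luc7l3 in CA3 this came from a negative change on polysomes (-0.58) beside one of 0.07 in total RNA. It equals the change of the polysome to total ratio. In CA1 it was negative for 10 of 10 members, all 10 with an unadjusted p under 0.05. At the adjusted threshold 5 were called lower, where 3.41% of all genes were. That share gives no background for the counts of negative values and of unadjusted p. The called members were Srsf7 (-1.01 ± 0.25, limma adjusted p = 0.0239), Srsf3 (-0.85 ± 0.19, adjusted p = 0.0156), Luc7l3 (-0.84 ± 0.20, adjusted p = 0.0206), Srsf5 (-0.70 ± 0.15, adjusted p = 0.0155) and Srsf1 (-0.67 ± 0.17, adjusted p = 0.0271). The 5 others ranged from -0.56 (Srsf6) to -0.41 (Srsf11). The members' median was -0.61, beside -0.06 over all genes. With pool as a replicate block all 10 were called, with 11.5% of all genes called lower. That fit applied a single correlation to both conditions, which the NIC pairs did not show, so its count may be too high. Without NIC CA1 total replicate 2 the count was 0, with 0.212% of all genes called lower and a members' median of -0.53. The count was 1 without 8R CA1 polysome replicate 3, and 2 without NIC CA1 polysome replicate 3 or 8R CA1 total replicate 1. Shares of all genes are not given for these fits.

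In CA3 the difference of the changes was also negative for 10 of 10 members, with a median of -0.56 beside -0.07 over all genes. Srsf2 was the 1 member called (-0.85 ± 0.15, limma adjusted p = 0.0117), where 0.11% of all genes were called lower. The other values ran from -0.86 (Srsf7) to -0.28 (Srsf4), and 9 members had an unadjusted p under 0.05. The 0.11% is at the adjusted threshold and gives no background for that count. With pool as a replicate block, a fit with the same limit as in CA1, 7 were called, Srsf4, Srsf6 and Srsf10 being the others. There 7.12% of all genes were called lower. Without the 8R arrays of pool 4 the count was 7 (7.21% of all genes called lower), and without 8R CA3 total replicate 4 it was 7 (5.7%). It was 0 without NIC CA3 polysome replicate 3 or NIC CA3 total replicate 2, the latter with 0.0472% of all genes called lower. Without 8R CA3 polysome replicate 1 or replicate 2 it was 2 or 3. Shares of all genes are not given for the other fits of this kind.

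Because total and polysome RNA of a pool came from the same rats, the difference of the fractions can be read pool by pool. For Srsf3 in CA1, polysome minus total RNA was 0.68, 1.07 and 0.90 in the 3 NIC pools and -0.06, 0.21 and 0.05 in the 3 8R pools with both arrays. In CA3 it was 0.62, 0.75 and 0.47 in NIC and -0.14, 0.02, -0.21 and -0.29 in 8R. Thus all NIC pools held a higher share of Srsf3 on polysomes than in total RNA, and 3 of 4 8R pools in CA3 a lower one. For Srsf1, whose pools lay close together, CA1 values were 0.92, 0.93 and 0.86 in NIC and 0.16, 0.33 and 0.16 in 8R. Luc7l3 in CA1 was at 0.80, 1.11 and 1.08 in NIC and 0.01, 0.25 and 0.00 in 8R. Srsf2 in CA3 was at 1.02, 1.03 and 1.10 in NIC and 0.26, 0.49, 0.12 and -0.08 in 8R, with pool 4 the lowest. The 8R pools lay below every NIC pool for 9 of 10 members in CA1 (29.2% of all genes tested) and for 9 of 10 in CA3 (21.5% of all genes tested). Srsf4 was the exception in both regions, with 1.11, 1.01 and 0.63 in NIC and 0.42, 0.69 and 0.28 in 8R in CA1.

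**Figure D3:**
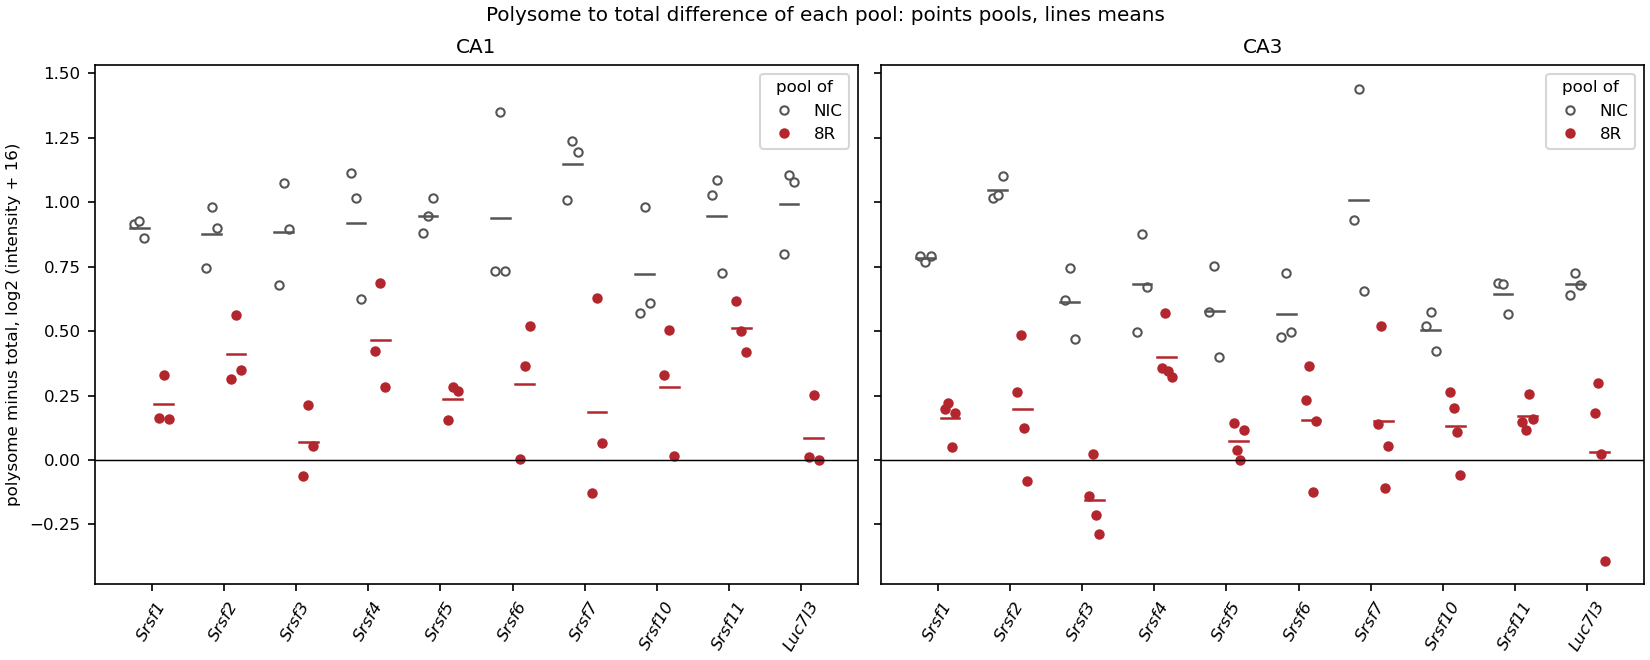
Polysome minus total RNA of each pool (y axis, log2 of intensity + 16) for the 10 SR splicing factors (x axis), CA1 at left and CA3 at right, with NIC pools open, 8R pools filled and a line at each mean. The NIC and 8R points separate for every member but Srsf4, whose lowest CA1 NIC pool (0.63) lies below its highest 8R pool (0.69).

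In control tissue the SR factor transcripts made up a larger share of polysome RNA than of total RNA. All 10 were called higher on polysomes in NIC CA1 (39.4% of all genes) and all 10 in NIC CA3 (21.5% of all genes), with median differences of 0.93 and 0.66 beside 0.20 and 0.00 over all genes. How the arrays of the fractions were scaled to each other is not given in the sources used here. Scaling every array to a common median moved the median of all genes to 0.11 in NIC CA1 and 0.19 in NIC CA3, and quantile normalization to 0.04 and 0.07. Under either, all 10 members were called higher on polysomes in both regions, with members' medians of 0.82 and 0.69 in CA1 and 0.88 and 0.62 in CA3. Srsf7 had the largest difference in CA1, at 34.1, 27.4 and 40.3 in total and 84.8, 86.2 and 113 in polysome RNA (1.15 ± 0.18, 2.21-fold, limma adjusted p = 1.07e-05). Srsf2 had the largest in CA3, at 129.7, 122 and 130.3 in total and 279, 265 and 298 in polysome RNA (1.05 ± 0.12, 2.07-fold, limma adjusted p = 1.45e-07).

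After ischemia fewer members were called. In 8R CA1 they were Srsf11 (0.54), Srsf4 (0.45), Srsf2 (0.43) and Srsf6 (0.38), 4 of 10 where 28.5% of all genes were called higher. The members' median of 0.26 lay close to the 0.18 over all genes. Srsf6 was the least firm, with overlapping arrays and an adjusted p of 0.101 when the fit held just these arrays. With arrays scaled to a common median 1 member was called there, and with pool as a replicate block 7 were (43.9% of all genes, either direction). In 8R CA3 Srsf4 was the 1 member called (0.40 ± 0.12, limma adjusted p = 0.0159), where 7.71% of all genes were called higher. Its arrays were 102, 103, 108 and 83.5 in total and 135, 160.5, 142 and 108 in polysome RNA and did not overlap. That call was lost in a fit of these groups alone (adjusted p = 0.0514), without 8R CA3 polysome replicate 2 (0.0783) and without 8R CA3 total replicate 4 (0.0651). In 8R CA3 quantile normalization called 4 members (26.8% of all genes, either direction).

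The balance of calls over all genes depended on the scaling between arrays, and so did some counts of members. In CA1 total RNA 2561 genes were called higher and 782 lower as deposited, and 2034 and 1724 after quantile normalization, with 9 members called under both. In CA3 total RNA the counts were 1805 and 170 as deposited and 1063 and 542 after quantile normalization, with 7 members called under both. In polysome RNA the deposited values gave 619 higher and 440 lower in CA1 and 303 and 35 in CA3. Scaling to a common median gave 309 and 349 in CA1 and 81 and 84 in CA3, and quantile normalization 126 and 48 in CA3. Luc7l3 was the 1 member called in CA3 under each. For the difference of the changes, 52 genes were called higher and 434 lower in CA1, and 165 and 317 after quantile normalization. The members called there went from 5 to 3. In CA3 the all-gene counts were 7 and 14 as deposited, 10 and 8 after quantile normalization, and 13 and 47 with a common median. Polysome against total RNA gave 5013 genes higher and 588 lower in NIC CA1, 2862 and 1500 after quantile normalization, and 3230 and 883 with a common median. In NIC CA3 it gave 2733 and 2145 as deposited, 3138 and 1584 after quantile normalization, and 4576 and 870 with a common median. In 8R CA1 it gave 3621 and 750 as deposited, 1938 and 1257 after quantile normalization, and 857 and 1076 with a common median, and the members called were 4, 3 and 1. In 8R CA3 it gave 980 and 1645 as deposited, 2101 and 1309 after quantile normalization, and 1387 and 1049 with a common median, and the members called were 1, 4 and 1.

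The change was not shown to differ between CA1 and CA3 for any member. In total RNA 9 of 10 changes were larger in CA1, with a median difference of 0.29, but 0 were called by limma, 2 had an unadjusted p under 0.05, and 0.0236% of all genes were called. The largest was that of Luc7l3 (0.42 ± 0.19, 95% interval 0.03 to 0.82, limma adjusted p = 0.942), followed by Srsf7 (0.38 ± 0.24) and Srsf6 (0.37 ± 0.20). Srsf2 alone had the larger change in CA3 (-0.17 ± 0.15). In polysome RNA 0 were called, 0 had an unadjusted p under 0.05, 9 of 10 values were positive and 0.0157% of all genes were called. The intervals for single members spanned from -0.56 to 0.74 in polysome RNA and from -0.49 to 0.87 in total RNA.

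Control levels did not separate the fields by the test either. Between NIC CA1 and NIC CA3, 0 members were called in total RNA by limma (3.47% of all genes, and 0 members at an unadjusted p under 0.05), with differences of -0.25 (Srsf3) to 0.09 (Srsf2). In NIC polysome RNA 0 of 10 were called (28.4% of all genes) and 2 had an unadjusted p under 0.05, Srsf6 (0.31 ± 0.15, limma adjusted p = 0.107) and Srsf11 (0.24 ± 0.11, adjusted p = 0.0958). Both were called with array weights, with pool as a replicate block and in a fit of these groups alone, the last of which also called Srsf5, and Srsf11 without the 8R arrays of pool 4. In these 4 fits 45.3%, 42.5%, 43.6% and 42.9% of all genes were called, so the members were not called more often than other genes. Srsf6 polysome arrays were 161, 166 and 159.8 in CA1 and 126, 127 and 129 in CA3. Those groups were tight and did not overlap, and 54.9% of all genes tested had groups without overlap in this comparison. The all-gene median of this comparison, 0.23, went to -0.05 with arrays scaled to a common median and 0.00 after quantile normalization, and the members' median of 0.12 went to -0.19 and -0.10. As deposited 3516 genes were called higher in CA1 and 93 lower, against 191 and 203 with a common median and 366 and 229 after quantile normalization.

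Ordered by mean level over the 8 groups, the NIC total groups were the lowest for 10 of 10 members, as for 22.7% of all genes tested. The arrays of those groups were clear of the next group for 7 members, Srsf1, Srsf2, Srsf3, Srsf5, Srsf7, Srsf10 and Srsf11, and overlapped it for Srsf4, Srsf6 and Luc7l3. Over all genes tested 6.16% had the NIC total groups lowest and clear of the next group. The highest mean was in 8R CA1 polysome RNA for 7 members, in NIC CA1 polysome RNA for Srsf4 and Luc7l3, and in NIC CA3 polysome RNA for Srsf7. Among the 70 pairs of groups next to each other in these orders, 57 had overlapping arrays (81.4%, beside 91.6% over all genes tested), so most neighbours were not separated by their spread. Srsf5 was clear at the top as well: 8R CA1 polysome arrays were 573, 494 and 552, above the 473, 461 and 437 of NIC CA1 polysome RNA. Srsf11 had the same arrangement, with 216, 190.4 and 198 over 187, 178 and 159. Luc7l3 had the reverse, its NIC polysome groups being above its 8R polysome groups in both regions.

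The wider SR machinery was measured with lists chosen from knowledge of the pathway, but with earlier results of these data known. The counts below therefore describe these lists and are not independent support. Of 26 other SR and SR-related proteins tested, 17 were called higher and 1 lower in CA1 total RNA, 9 higher in CA3 total RNA, 1 higher in CA1 polysome RNA and 0 in CA3 polysome RNA, where 2 had an unadjusted p under 0.05 (limma). The shares of all genes called higher in these comparisons were 20.1%, 14.2%, 4.87% and 2.38%, so the polysome counts are near the background. Rbm39, an RS-domain partner of the early spliceosome, rose by 1.08 ± 0.11 in CA1 total RNA and 0.59 in CA3 total RNA. Tra2b, which activates exons together with SR proteins, rose by 0.91 ± 0.14 in CA1, and its relative Tra2a by 0.56. Srrm2, a scaffold of nuclear speckles, was the member called higher in CA1 polysome RNA (0.45 ± 0.13, limma adjusted p = 0.0286). Read as the ratio of fractions, 7 of the 26 were called lower in CA1 (3.41% of all genes) and 0 in CA3 (0.11% of all genes).

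A further list held SR kinases, phosphatases and nuclear import receptors. Its genes were called higher in 9 of 18 cases and lower in 1 in CA1 total RNA (20.1% and 6.15% of all genes). In CA3 total RNA 7 were called higher (14.2% of all genes). On polysomes 1 of 18 was called higher in each region (4.87% and 2.38% of all genes) and 1 lower in CA1 (3.46%), all near the background. The nuclear SR kinases Clk1 (1.15 ± 0.17, limma adjusted p = 7.33e-06), Clk4 (1.08 ± 0.14) and Clk3 (0.73 ± 0.11) rose in CA1 total RNA. Clk1 and Clk4 rose in CA3 total RNA too, by 0.85 and 0.52, as did Prpf4b, a kinase of the spliceosome (0.44). The import receptor Tnpo1 was the gene of this list called higher on polysomes, by 0.69 ± 0.12 in CA1 and 0.43 ± 0.12 in CA3. Which proteins it imports was not examined here, so its change is not one of SR import. Srpk1, the cytoplasmic SR kinase, was called lower in CA1 polysome RNA (-0.41 ± 0.11, limma adjusted p = 0.0146).

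The hnRNP proteins, which often oppose SR proteins at exons, were called higher in 21 of 27 cases in CA1 total RNA and 16 in CA3, against 4 and 2 on polysomes, with 0 lower in any of these. For this list and those that follow, the shares of all genes called higher were 20.1% in CA1 total, 14.2% in CA3 total, 4.87% in CA1 polysome and 2.38% in CA3 polysome RNA. Tardbp (1.28 ± 0.14), Hnrnph3 (1.24 ± 0.10), Syncrip (0.96) and Hnrnpm (0.92) led in CA1 total RNA. Ptbp1, a repressor of neuronal exons, led on polysomes, with 0.91 ± 0.18 in CA1 and 0.61 ± 0.16 in CA3. Of 40 core spliceosome genes 21 rose in CA1 total RNA and 16 in CA3, against 3 and 2 on polysomes, the latter close to the all-gene shares, with Prpf39 (1.24), Snrpa1 (1.02), Sf3b1 (0.97) and Snrpb2 (0.91) the largest in CA1. Exon junction and nonsense-mediated decay genes rose in 9 of 14 cases in CA1 total RNA and 8 in CA3, among them Rbm8a (0.74 and 0.51) and Upf2 (0.59 and 0.62). Of these, Upf1 (0.46) and Smg6 (0.35) were called on CA1 polysomes. Export genes rose in 9 of 15 cases in CA1 total RNA and 6 in CA3, among them Thoc1 (0.73 and 0.54) and the adapter Alyref (0.55 and 0.46), and 1, Ddx39a (0.50), on CA1 polysomes.

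Among genes listed as neuronal splicing regulators, which were not chosen as markers of neurons, calls went in both directions. In CA1 total RNA 2 of 20 were called higher and 4 lower (20.1% and 6.15% of all genes), the latter being Celf5 (-0.65 ± 0.11), Celf3 (-0.59 ± 0.11), Rbfox3 (-0.52 ± 0.11) and Rbfox1 (-0.48 ± 0.14). In CA3 total RNA Celf5 and Rbfox3 were called lower and Rbfox2 and Mbnl2 higher, and on polysomes Rbfox3 in CA1 was the 1 call (-0.44 ± 0.12, limma adjusted p = 0.0154). The list median in CA1 total RNA was -0.12, beside 0.04 over all genes. Rbfox3 is also 1 of the 7 neuron markers, 5 of which were called lower in CA1 polysome RNA. No test compared one list with another.

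**Figure D4:**
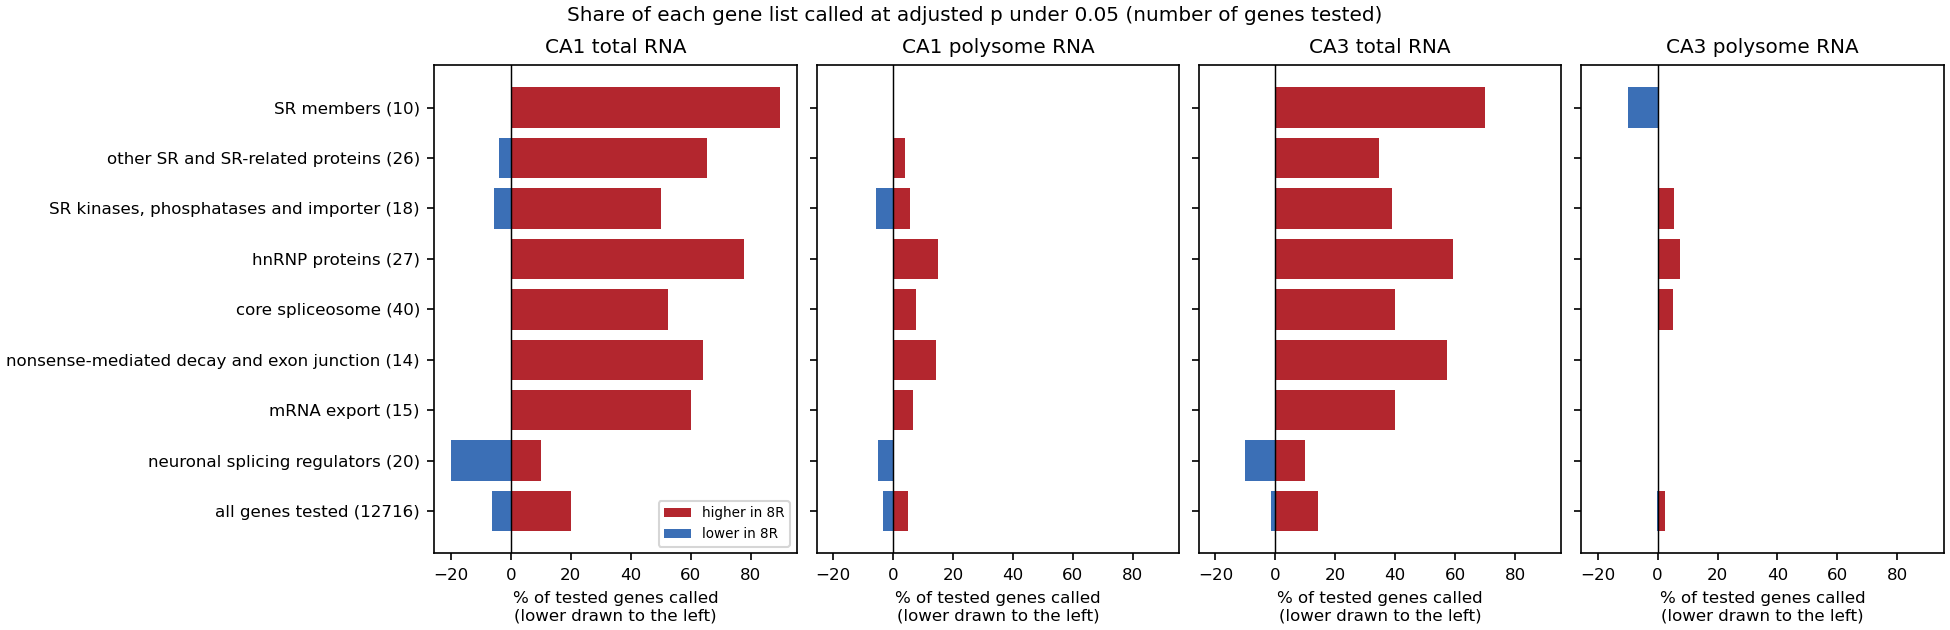
Percentage of the tested genes of each list (number in brackets) called higher (red, to the right) or lower (blue, to the left) in 8R at a limma adjusted p under 0.05, in the 4 combinations of region and fraction, with all 12716 genes in the bottom row. For the SR splicing factors 9 of 10 are called higher in CA1 total RNA and 7 of 10 in CA3 total RNA, with 0 called higher in either polysome fraction.

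Genes outside the group with the most similar pattern over the 8 group means were found by the root mean square difference from the members' median profile, each profile centred on its own mean. The nearest 5 of the genes tested were Eef1d (0.040 in log2), Phax (0.046), Sf3a3 (0.046), Dcaf13 (0.050) and Snrnp70 (0.050). Eef1d encodes a subunit of the translation elongation factor complex, Phax an adapter for nuclear export of small RNAs, and Sf3a3 and Snrnp70 are parts of the spliceosome. Among the members Srsf1 lay nearest to the median profile (0.050) and Luc7l3 farthest (0.23). In CA1 total RNA these 5 genes rose by 0.63 (Eef1d), 0.71 (Phax), 0.77 (Sf3a3), 0.70 (Dcaf13) and 0.75 (Snrnp70), and in CA1 polysome RNA none of the 5 was called, with differences of -0.03 to 0.05. They were picked for this likeness, so their changes describe the pattern and test nothing.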

How the data were processed

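Total and polysome RNA were hybridised to Affymetrix Rat Gene 2.0 arrays, a design whose probe sets read a gene over many exons and do not resolve its isoforms. The authors deposited 1 intensity per probe set and array on a linear scale, and the tools named, per the submitters' processing notes, are PLIER and Affymetrix Expression Console (versions unstated). The sources used here do not give the normalization or the scaling between arrays. Of 36685 probe sets, 18511 had 1 gene symbol in the platform annotation, 575 several and 17599 none. Of the first, 18394 were found in the current gene table, with 0 symbols renamed. The brightest probe set was kept for each of 18166 genes, and genes whose mean lay below the 30th percentile were left out.

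R 4.3.3 with limma 3.58.1 was used on log2(intensity + 16): 8 group means, 27 arrays, variances moderated along the mean level (residual degrees of freedom 19, prior 10.1), two-sided tests and Benjamini-Hochberg adjustment over 12716 genes. The procedure was run on simulated data with independent arrays and changes added to 8R CA1 total RNA alone. Shared pools and fraction differences were not simulated. Arrays number 3 or 4 a group, which limits the precision.

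Members and lists were chosen with earlier results of these data known. Named were all members, per list up to 4 called genes with the largest change in a comparison of 8R with NIC, the 5 nearest profiles, and Hspb1, Hmox1 and Atf3. Pool numbers come from the sample descriptions, and the design text says that a pool's supernatant gave both fractions. Deviations from the group means of total and polysome arrays with 1 pool number and region correlated at 0.28 to 0.77 over 7 pairs in 8R and at -0.04 to 0.22 over 6 pairs in NIC. Pool within condition was therefore also fitted as a random replicate block (consensus correlation 0.27), and its values stand beside results whose calls it changed. That correlation was shared by both conditions, although the median of the pairs above was 0.41 in 8R and 0.03 in NIC. The block also joined CA1 and CA3 arrays of a pool number. Its calls for differences of fractions may thus be too many. CA1 and CA3 pools may hold the same rats.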

Additional observations from a re-analysis of the deposited data

How the results depend on the processing

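The counts of SR factors called were recomputed under 12 alternatives (pseudocounts of 1 and 64, quantile and median scaling, no filter and a filter at the 50th percentile, the mean of probe sets, array weights, no variance trend, the replicate block, no 8R arrays of pool 4, and a fit of the compared groups alone) and without each array. Over 1680 member values under the alternatives 0 reversed after being called, 12 lost and 49 gained a call. Without single arrays, 0 of 1200 reversed, 34 lost and 13 gained a call. Over both kinds of fit together 62 uncalled values changed sign. CA1 total RNA kept a count of 9 under the 12 alternatives and CA3 total RNA one of 7 or 8. With 1 array left out the counts were 8 to 9 and 6 to 7.

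With the replicate block the count was 1 in CA1 polysome RNA (from 0), 10 and 7 for the fraction difference in CA1 and CA3 (from 5 and 1), 2 for NIC polysome RNA of CA1 against CA3 (from 0) and 7 for 8R CA1 polysome against total RNA (from 4), and it changed no other count. The shares of all genes called, in that order, were 10.3%, 11.5% and 7.12% (lower), 42.5% and 43.9%. Array weights gave 1 in CA1 polysome RNA, 6 and 7 for the fraction difference in CA1 and CA3, and 2 for NIC polysome RNA of CA1 against CA3. Beside these, 17.3%, 10.2% and 12.1% (lower) and 45.3% of all genes were called. Without the 8R arrays of pool 4 the counts were 2 in CA1 polysome RNA, 7 for the CA3 fraction difference, 1 for NIC polysome RNA of CA1 against CA3 and 2 for 8R CA3 polysome against total RNA. Beside these, 8.86%, 7.21% (lower), 42.9% and 24.4% of all genes were called. A fit of the compared groups alone gave 0 in CA3 polysome RNA, 3 for NIC polysome RNA of CA1 against CA3 and 0 for 8R CA3 polysome against total RNA. Beside these, 1.16%, 43.6% and 12.7% of all genes were called. Quantile normalization gave 3 for the CA1 fraction difference (2.49% of all genes called lower) and 4 for 8R CA3 polysome against total RNA (26.8% called). Median scaling gave 1 for 8R CA1 polysome against total RNA. Leaving out 1 array gave 0 to 1 in CA3 polysome RNA, 0 to 5 and 0 to 7 for the fraction difference in CA1 and CA3, and 3 to 5 and 0 to 2 for 8R polysome against total RNA in CA1 and CA3. Fewer arrays enter those fits, and the cause of the other moves was not tested. The members' median fraction difference stayed between -0.69 and -0.45 in CA1 and between -0.70 and -0.40 in CA3 in all of these fits.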

Other observations

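The spread of the SR factors between pools was wider after ischemia than in controls in these arrays. Over all genes tested the arrays also agreed less in 8R. The lowest correlation of an array with others of its group was 0.946 to 0.969 in 8R and 0.979 to 0.986 in NIC. The wider spread is thus not shown to be particular to the SR factors. The median SD of a member within a group, on the log2 scale, was 0.06 in NIC and 0.22 in 8R for CA3 polysome RNA. For CA1 polysome RNA the NIC and 8R values were 0.09 and 0.16. Total RNA gave 0.12 and 0.15 for CA3, then 0.12 and 0.14 for CA1. In 8R CA3 polysome RNA replicate 4 was below the group mean for all 10 members and replicate 2 was above it for all 10. In 8R CA1 total RNA replicate 1 was above the group mean for all 10. Such one-sided arrays occurred in controls too: NIC CA1 total replicate 1 was above its group mean for all 10 members and NIC CA3 total replicate 2 was above for 0. The difference in spread was not tested.

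A pseudogene of Luc7l3, Luc7l3-ps1, has a probe set of its own whose intensity ranged from 6.28 to 20.3 over the 27 arrays, and it did not pass the filter on low values.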
